A study of Capra hircus with 20 samples.

Results

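miR-219 and miR-338 are the pair of miRNAs most closely tied to oligodendrocytes, the glial cells that wrap axons in myelin. They were read here from a small RNA sequencing table of the goat hypothalamus. The members were chosen by name: every row called miR-219, miR-219a, miR-219b or miR-338, with either arm. This gave 3 of the 683 rows, namely chi-miR-338-5p, chi-miR-338-3p and chi-miR-219, whose name carries no arm; the prefix for the goat is dropped from here on. All 3 passed the filter on low values, which kept 414 miRNAs with at least 1 RPM in at least 5 libraries. RPM is a miRNA's read number after every library is brought to the same total of miRNA reads.

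The animals were Jining grey goats kept under 1 regime, and the tissue was whole hypothalamus, the brain region that governs the onset of puberty. It was sampled at days 1, 60, 120 and 180 after birth, with 5 goats at each age and 20 libraries in all. The labels name no treatment, genotype or sex, so the groups are told apart by age alone. Each library is a mixture of neurons, glia and vessels.

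A miRNA gene is transcribed as a hairpin, and either arm of the hairpin, 5p or 3p, can be loaded into the silencing complex and repress mRNAs that match its seed. In mice, miR-219 and miR-338 rise as oligodendrocyte precursors leave the cell cycle, and they repress genes that hold precursors back, among them Pdgfra, Sox6 and Hes5. Loss of miR-219 in mouse oligodendrocytes impairs myelination, and loss of miR-338 makes that defect more severe. The rodent work describes mainly the 3p arm of miR-338 and the 5p arm of miR-219. In the RefSeq annotation of the goat assembly ARS1.2, the gene MIR338 lies inside AATK, a kinase gene of the nervous system, with CEP131 and BAIAP2 on either side. MIR219 lies in no other gene, between URM1 and CERCAM, so the members come from separate loci.

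Libraries held between 4017937 and 8324880 miRNA reads, so that a floor of 3 reads corresponded to between 0.360 and 0.747 RPM. The neuron list (7 tested rows of miR-124a, miR-128, miR-129, miR-137 and miR-218) summed to between 7939 and 74215 RPM over the 20 libraries. No threshold was set for this sum, so it is no test of the labelled tissue. Day 1 replicate 2 stood apart from the rest: it had the lowest depth and the lowest median rank correlation with the other libraries, at 0.873. Day 1 replicate 3 was next, at 0.918. No 2 libraries of an age agreed within sampling noise.

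miR-338-5p was the most abundant member. Its level averaged 2403 RPM over the 20 libraries, which placed it at rank 44 of the 414 tested miRNAs. At day 1 it had 1882, 1272, 1888, 372 and 1396 RPM in replicates 1 to 5. At day 60 it had 2180, 3775, 2677, 1340 and 3409 RPM. At day 120 it had 445, 1716, 4556, 3282 and 2751 RPM, and at day 180 it had 2255, 3424, 6760, 600 and 2083 RPM. The highest of the day 1 libraries was passed by 4 of 5 libraries at day 60, 3 of 5 at day 120 and 4 of 5 at day 180, while each later age also had at least 1 library within the day 1 range. The age means were 1362 ± 620, 2676 ± 971, 2550 ± 1560 and 3024 ± 2317 RPM (SD, n = 5 each). In order of mean level, day 180 came first, then day 60, day 120 and day 1, and each neighbouring pair in that order overlapped.

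miR-338-3p, the other arm of the same hairpin, averaged 304 RPM and stood at rank 118. At day 1 it had 141, 110, 690, 42.3 and 215 RPM in replicates 1 to 5. At day 60 it had 235, 209, 128, 75.5 and 487 RPM. At day 120 it had 104, 188, 519, 321 and 376 RPM, and at day 180 it had 305, 587, 668, 94.0 and 590 RPM. Day 1 held both the lowest and the highest of the 20 values, so that its range covered that of every other age. The age means were 240 ± 259, 227 ± 158, 302 ± 162 and 449 ± 242 RPM (SD, n = 5 each), and the medians were 141, 209, 321 and 587 RPM. Leaving out day 1 replicate 3 gave a day 1 mean of 127 ± 71.9 RPM (SD, n = 4).

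miR-219 was the least abundant, with a mean of 25.4 RPM and rank 256. At day 1 it had 11.9, 25.9, 234, 3.05 and 18.6 RPM in replicates 1 to 5. At day 60 it had 12.01, 17.3, 13.3, 3.20 and 28.5 RPM. At day 120 it had 3.06, 9.61, 20.9, 12.6 and 16.6 RPM, and at day 180 it had 10.04, 16.2, 28.5, 1.82 and 20.4 RPM. Apart from day 1 replicate 3, all libraries lay at or below 28.5 RPM, and the 4 ages covered nearly the same range. The age means were 58.7 ± 98.5, 14.9 ± 9.19, 12.6 ± 6.81 and 15.4 ± 10.1 RPM (SD, n = 5 each). The day 1 mean without replicate 3 was 14.8 ± 9.73 RPM (SD, n = 4).

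The highest miR-219 value rested on 1671 reads, with an exact 95% binomial interval of 223 to 246 RPM. The lowest, in day 180 replicate 4, rested on 15 reads, with an interval of 1.02 to 3.00 RPM. The intervals cover counting error only, and they are narrow beside the differences between animals of an age.

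**Figure D1:**
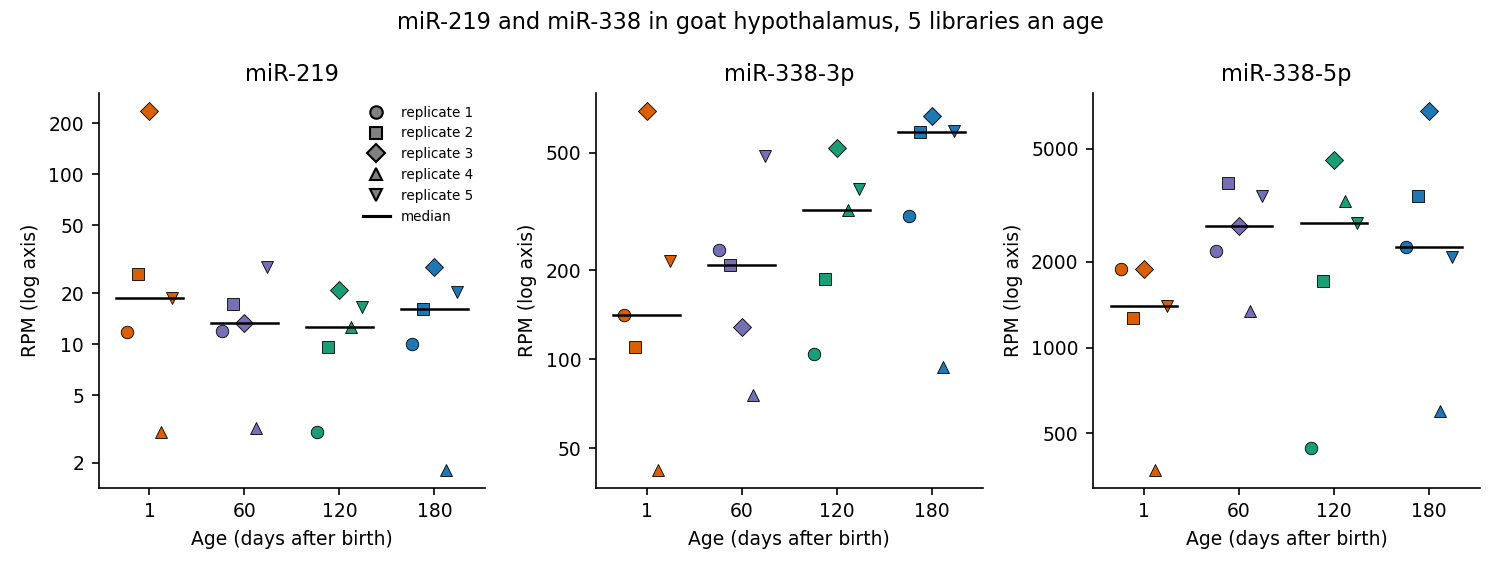
Level of each member (RPM, log axis) against age in days after birth; each symbol is 1 library, its shape the replicate number, and the bar is the median of the 5 libraries. miR-338-5p has a higher median at each later age than at day 1, miR-338-3p has medians of 141, 209, 321 and 587 RPM, and miR-219 stays at or below 28.5 RPM in every library other than day 1 replicate 3, at 234 RPM.

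The first question was whether the members changed after day 1. limma, a linear model fitted to log2(RPM + 1) of all 414 miRNAs in all 20 libraries, was used for each comparison. A miRNA was called at a Benjamini-Hochberg adjusted p under 0.05 over all tested miRNAs. Days 60, 120 and 180 together were set against day 1: 0 of the 3 members were called, where 10.6% of all tested miRNAs were. miR-338-5p had a log2 fold change of 0.93 (SE 0.50, 95% confidence interval -0.09 to 1.95, adjusted p = 0.229). miR-338-3p had 0.73 (SE 0.54, interval -0.38 to 1.83, adjusted p = 0.414). miR-219 had -0.87 (SE 0.65, interval -2.21 to 0.47, adjusted p = 0.421). As fold changes, the intervals ran between 0.937 and 3.87 for miR-338-5p, between 0.769 and 3.56 for miR-338-3p and between 0.216 and 1.39 for miR-219, so changes of those sizes could not be told from none. In whole tissue, fewer cells of a type and less of the miRNA per cell cannot be told apart.

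The day 1 side of miR-219 rested on 1 library. When day 1 replicate 3 was left out, its log2 fold change for the later ages against day 1 was -0.03 (limma, adjusted p = 0.981), while miR-338-3p had 1.26 (adjusted p = 0.144) and miR-338-5p had 1.10 (adjusted p = 0.211). Leaving out day 1 replicate 2, the library with the lowest depth, gave 0.96 for miR-338-5p, 0.60 for miR-338-3p and -0.81 for miR-219 by limma, with no member called. Tests on the recovered read counts called miR-219 lower after day 1 with all libraries, at -1.92 by edgeR with TMM scaling (adjusted p = 0.0210) and -2.03 by DESeq2 (adjusted p = 0.00750). In the same comparison edgeR called 22% (24.4% with library sizes alone) and DESeq2 26% of all miRNAs tested, in either direction. Both dropped the call when that library was left out, with 0.036 (adjusted p = 0.969) and 0.073 (adjusted p = 0.940).

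At day 60 against day 1, 0 of the 3 members were called by limma, where 3.86% of all tested miRNAs were. miR-338-5p had a log2 fold change of 1.08 (SE 0.61, adjusted p = 0.322), and 4 of the 5 day 60 libraries lay above all 5 day 1 libraries. miR-338-3p had 0.25 (SE 0.66, adjusted p = 0.869) and miR-219 had -0.79 (SE 0.80, adjusted p = 0.623). DESeq2 on the read counts called miR-219 lower at day 60, at -2.03 (adjusted p = 0.0421), where it called 20.9% of all tested miRNAs, and gave 0.082 (adjusted p = 0.968) without day 1 replicate 3.

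At day 180 against day 1, 0 of the 3 members were called, where 3.38% of all tested miRNAs were. miR-338-3p had its widest difference here, a log2 fold change of 1.21 (SE 0.66, interval -0.14 to 2.57, adjusted p = 0.310). miR-338-5p had 0.96 (SE 0.61, interval -0.29 to 2.21, adjusted p = 0.378), and miR-219 had -0.85 (SE 0.80, interval -2.49 to 0.79, adjusted p = 0.566). Without day 1 replicate 3, the log2 fold change of miR-338-3p was 1.74 by limma (adjusted p = 0.142) and 1.87 by DESeq2, which then called it (adjusted p = 0.0172), along with 14.2% of all miRNAs tested. The median log2 fold change of all tested miRNAs in this comparison was -0.25 on RPM and -0.03 with median-of-ratios scaling.

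At day 120 against day 1, 0 of the 3 members were called, where 3.38% of all tested miRNAs were. The log2 fold changes were 0.75 (adjusted p = 0.514) for miR-338-5p, 0.72 (adjusted p = 0.583) for miR-338-3p and -0.97 (adjusted p = 0.519) for miR-219 by limma. DESeq2 called miR-219 lower at day 120, at -2.26 (adjusted p = 0.0229), where it called 18% of all tested miRNAs, and gave -0.16 (adjusted p = 0.892) without day 1 replicate 3. By limma without day 1 replicate 3, miR-219 had -0.13 and miR-338-3p had 1.25.

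Among the 3 later ages nothing was called. At day 120 against day 60, at day 180 against day 120 and at day 180 against day 60, limma called 0 members and 0% of all tested miRNAs. At an unadjusted p under 0.05 the numbers were 13, 3 and 20 of the 414 in that order, and edgeR and DESeq2 also called 0. miR-338-5p had log2 fold changes of -0.34, 0.21 and -0.12 in that order, miR-338-3p had 0.48, 0.49 and 0.96, and miR-219 had -0.18, 0.12 and -0.06. The SE of these differences was 0.61 for miR-338-5p, 0.66 for miR-338-3p and 0.80 for miR-219. An F test over the 4 ages called 0 members by limma, where 1.93% of all tested miRNAs were called (adjusted p = 0.628 for miR-338-5p, 0.608 for miR-338-3p and 0.859 for miR-219). DESeq2's test over the 4 ages gave an adjusted p of 0.0280 for miR-219, where it called 21.8% of all tested miRNAs, and 0.939 without day 1 replicate 3. The libraries of every pair of ages overlapped in all 18 of 18 comparisons of a member. The share over all tested miRNAs is not given here, so this overlap is not read as particular to the members.

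**Figure D2:**
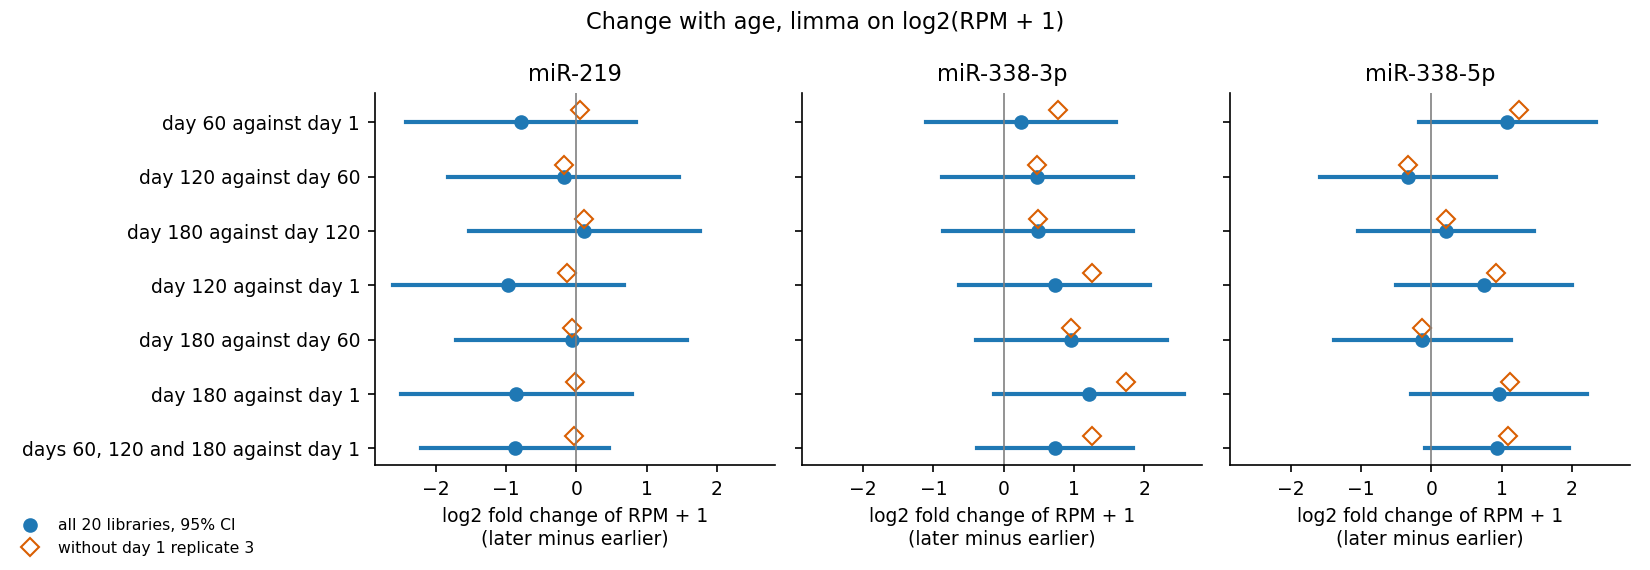
log2 fold change of RPM + 1, later age minus earlier age, for each member in 7 comparisons; filled circles with lines are the limma estimate from 20 libraries and its 95% confidence interval, and open diamonds are the estimate without day 1 replicate 3. Every interval includes 0, and in each comparison with day 1 the diamond lies to the right of the circle, for miR-219 at -0.03 against -0.87 for the 3 later ages together.

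The members varied more among goats of the same age than most miRNAs did. The within-age SD of log2(RPM + 1) was 1.44 for miR-219, 1.16 for miR-338-3p and 1.08 for miR-338-5p, against a median of 0.862 over the 320 miRNAs with at least 10 RPM in the mean of an age. Of these miRNAs, 95.9% had a smaller SD than miR-219, 86.6% a smaller one than miR-338-3p and 78.1% a smaller one than miR-338-5p. Without day 1 replicate 3 the shares were 85.6%, 75.6% and 80.9% in the same order. No test was made of this spread.

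The spread was shared by the members. In each of the 4 ages, 1 library was the lowest in all 3 members: replicate 4 at days 1, 60 and 180, and replicate 1 at day 120. At day 180, for example, replicate 4 had 600 RPM of miR-338-5p, 94.0 RPM of miR-338-3p and 1.82 RPM of miR-219, while the next lowest libraries had 2083, 305 and 10.04 RPM. With median-of-ratios scaling, 1 library was still the lowest in all 3 members in 3 of the 4 ages, the exception being day 60, where miR-338-5p was lowest in replicate 1. These 4 libraries were not shallow, with between 6251258 and 8236489 reads. The share of all tested miRNAs that were lowest in these libraries is not given here, so the count is not read as particular to the members. Both miR-338 rows are arms of 1 hairpin.

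The relation was measured over the 20 libraries on log2(RPM + 1), in 3 pairs of members. miR-338-3p and miR-219, which come from separate loci, had a Pearson r of 0.737 (permutation p = 1e-04, adjusted 0.00015 over 3 pairs) and a Spearman rho of 0.752 (permutation p = 0.00022, adjusted 0.00066). Within ages, after removal of each age's mean, their r was 0.938 (permutation p = 1e-05, the smallest that 100000 permutations can give, adjusted 3e-05). The 2 arms of miR-338 had an r of 0.777 (permutation p = 3e-05, adjusted 9e-05), a rho of 0.728 (permutation p = 5e-04, adjusted 0.00075) and an r of 0.817 within ages (permutation p = 4e-05, adjusted 4e-05). miR-338-5p and miR-219 had an r of 0.579 (permutation p = 0.00778, adjusted 0.00778), a rho of 0.579 (permutation p = 0.00864, adjusted 0.00864) and an r of 0.775 within ages (permutation p = 4e-05, adjusted 4e-05).

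These relations held in part without the extreme libraries. Without the 2 libraries farthest from the median of the x axis, r was 0.699 for miR-338-3p and miR-219 (permutation p = 7e-04) and 0.680 for the arms of miR-338 (permutation p = 0.00151). For miR-338-5p and miR-219 it was 0.404 (permutation p = 0.0952), so over all ages that relation rests on those 2 libraries, while within ages it was 0.685 (permutation p = 0.00057). Without day 1 replicate 3 the within-age r was 0.926 for miR-338-3p and miR-219, 0.861 for the arms and 0.885 for miR-338-5p and miR-219. Without day 1 replicate 2 it was 0.952, 0.827 and 0.775 in the same order. With median-of-ratios scaling the within-age r was 0.923, 0.798 and 0.746 in the same order. All values of a library share its total, its dissection and its RNA.

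**Figure D3:**
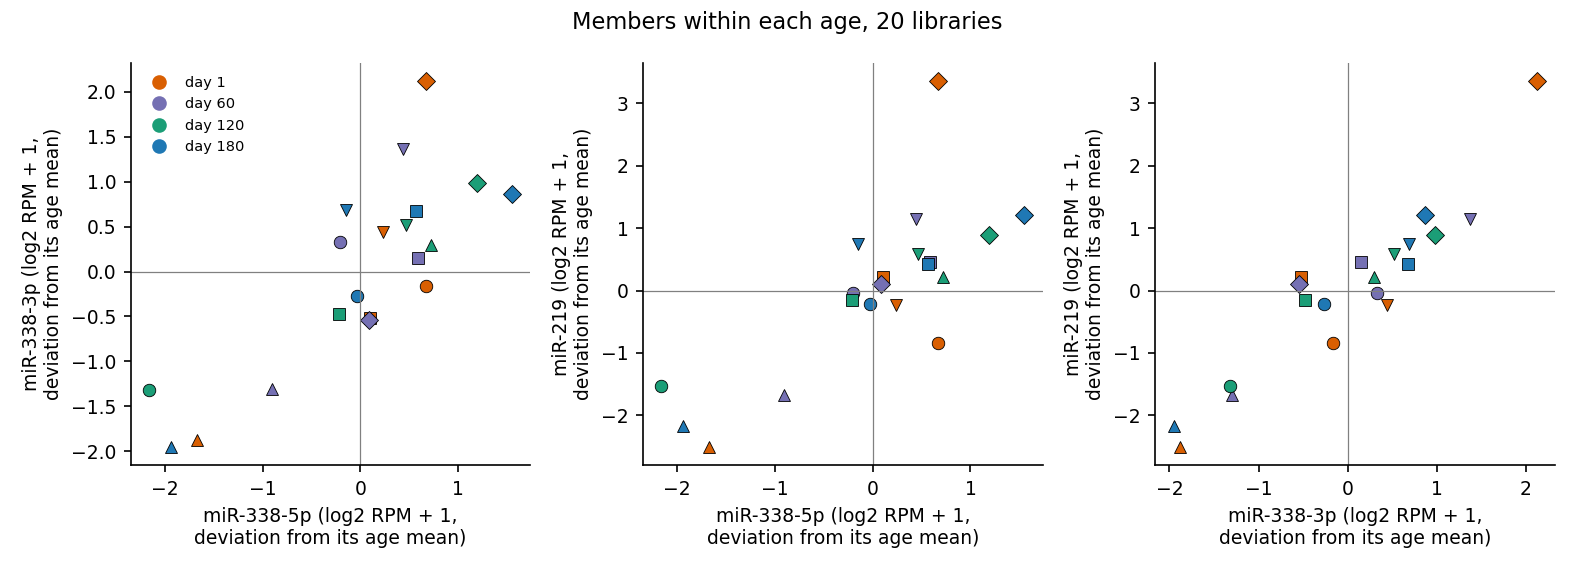
Deviation of each library from the mean of its age in log2(RPM + 1), for the 3 pairs of members; each symbol is 1 of 20 libraries, its colour the age and its shape the replicate number. The points rise together in each panel (within-age r of 0.817, 0.775 and 0.938, left to right), with the 4 lowest libraries at the lower left and day 1 replicate 3 at the top.

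The arms of miR-338 were then compared within each library, where both come from 1 hairpin and share all scaling. The 5p arm was higher than the 3p arm in 20 of 20 libraries, by 2.74-fold to 20.8-fold with a median of 8.79-fold. For 115 hairpins, both arms were tested and either arm had at least 10 RPM in the mean of an age. Of these hairpins, 63 had more of the 5p arm on average and 52 more of the 3p arm. The 5p arm was the higher one in every library in 54 of them. The arm ratio of miR-338 was less variable than that of most: its within-age SD was 0.68 log2 units, where the median over the hairpins was 0.79. The authors' rule for assigning trimmed or shifted reads to an arm is not known here.

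The 3p arm took 6.97%, 7.94%, 26.8%, 10.2% and 13.4% of the miR-338 reads at day 1, in replicates 1 to 5. At day 60 its share was 9.74%, 5.24%, 4.58%, 5.33% and 12.5%. At day 120 it was 19.0%, 9.86%, 10.2%, 8.91% and 12.03%, and at day 180 it was 11.9%, 14.6%, 8.99%, 13.5% and 22.1%. Day 1 replicate 3, the library with the most miR-219 and miR-338-3p, also had the highest 3p share. The mean share was 13.1% ± 8.05, 7.48% ± 3.47, 12.01% ± 4.07 and 14.2% ± 4.88 (SD, n = 5 each) at the 4 ages in order, and 9.62% ± 2.84 (SD, n = 4) at day 1 without that library.

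The log2 ratio of the 3p arm to the 5p arm averaged -2.65 at day 180 and -3.74 at day 60. Their difference of 1.09 (SE 0.40) was the widest of the 6 pairs of ages, with p = 0.0397 in an exact two-sided permutation test and 0.238 after adjustment over the 6 pairs. At day 120 against day 60 the difference was 0.81 (SE 0.38, exact permutation p = 0.0873, adjusted 0.254), and at day 60 against day 1 it was -0.84 (SE 0.51, exact permutation p = 0.127, adjusted 0.254). The other differences were 0.27 at day 180 against day 120, 0.25 at day 180 against day 1 and -0.02 at day 120 against day 1. None passed after adjustment. With 5 libraries against 5, the smallest p this test can give is 0.00794.

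**Figure D4:**
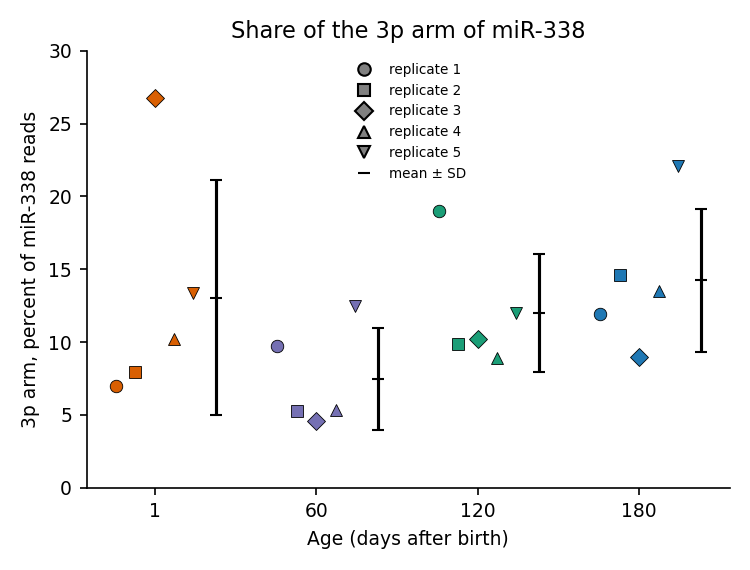
Share of the 3p arm in the reads of both miR-338 arms (percent) against age in days after birth; each symbol is 1 library, its shape the replicate number, and the bar is the mean ± SD of the 5 libraries. The 5p arm exceeds the 3p arm in all 20 libraries, and the mean 3p share is 13.1%, 7.48%, 12.01% and 14.2% at days 1, 60, 120 and 180.

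Other miRNAs of the oligodendrocyte lineage were set beside the members. A list of miRNAs with reported roles in oligodendrocyte differentiation or myelination had 6 tested rows. Of these, 5 lay above 0 for days 60, 120 and 180 against day 1, with a median log2 fold change of 0.60, and none was called; 43.2% of all tested miRNAs lay above 0, with a median of -0.14. The 4 most abundant were miR-23b-3p at 0.55 (adjusted p = 0.373), miR-23a at 0.73 (adjusted p = 0.166), miR-27a-3p at 0.64 (adjusted p = 0.222) and miR-146a at 0.95 (adjusted p = 0.222), all by limma. The miR-23 family represses lamin B1, a nuclear envelope protein whose excess impairs myelin in mice. The list's exception was miR-27a-5p at -0.74 (adjusted p = 0.117).

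A list of miRNAs reported in precursors, or to hold back their maturation, had 18 tested rows. Of these, 9 lay above 0 and 9 below it in the same comparison, with a median log2 fold change of 0.00, and none was called by limma. Its most abundant rows were miR-9-5p at -0.53 (adjusted p = 0.262), miR-7-5p at 0.25 (adjusted p = 0.819), miR-125a-5p at -0.02 (adjusted p = 0.971) and miR-92a-3p at -0.04 (adjusted p = 0.963). miR-9 is also abundant in neural progenitors and neurons, so its level is not specific to the lineage.

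Of the miRNAs that mark other cells, 8 of 9 astrocyte rows, 3 of 7 neuron rows, 3 of 7 microglia and immune rows, 2 of 4 vessel rows, 2 of 5 muscle rows and 0 of 3 erythroid rows lay above 0 after day 1, and none of these was called by limma. All 4 rows of the multiciliated and choroid plexus list lay below 0, and miR-449a-5p was called at -2.83 (adjusted p = 0.000394). The liver miRNA miR-122 was called at 2.79 (adjusted p = 0.00911). It reached 2540 RPM in day 60 replicate 4, 1 of the 4 libraries lowest in the members, against a day 60 median of 139 RPM. The part of other cell types in the members' values was not tested.

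The miRNAs whose pattern was most like each member were ranked by Pearson's r of log2(RPM + 1) over the 20 libraries, among 292 named miRNAs with at least 10 RPM in the mean of an age, as a description. The members themselves were left out of this ranking. Placed in it, miR-338-3p came at position 10 and miR-338-5p at position 35 for miR-219. For miR-338-3p, miR-338-5p came at position 5 and miR-219 at position 13. For miR-338-5p, miR-338-3p came at position 6 and miR-219 at position 23. By r over all 20 libraries, other miRNAs were thus closer to each member than the members were to each other. Within ages, miR-338-3p and miR-219 had an r of 0.938, above that of each of the 5 nearest miRNAs of either. Without day 1 replicate 3, the positions were 8 and 4 for miR-219, 6 and 12 for miR-338-3p and 5 and 7 for miR-338-5p, in the same order. miR-338-5p was most like miR-23b-3p (r = 0.921), miR-16b-5p (0.878), miR-181b-5p (0.863), miR-25-3p (0.806) and miR-16a-5p (0.785). miR-338-3p was most like miR-140-5p (r = 0.855), miR-24-5p (0.847), miR-20a-5p (0.803), miR-34a (0.787) and miR-450-5p (0.765). miR-219 was most like miR-21-5p (r = 0.850), miR-24-3p (0.844), miR-151-5p (0.828), miR-24-5p (0.818) and miR-500-5p (0.773). miR-24-5p was thus near both miR-338-3p and miR-219, and no miRNA was among the 5 nearest of both arms of miR-338. The first place of miR-21-5p for miR-219 rested on day 1 replicate 3: without that library its r was 0.699, at position 13. Other miRNAs named here also left the 5 nearest without it. These were miR-24-3p (position 9) and miR-500-5p (8) for miR-219, miR-34a (9) and miR-450-5p (11) for miR-338-3p, and miR-16a-5p (6) for miR-338-5p.

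Summed marker lists also moved with the members within ages, in 30 relations of 3 members with 10 lists. miR-338-5p had a within-age r of 0.913 with the sum of the differentiation list (permutation p = 4e-05, adjusted 0.0012), a sum led by miR-23b-3p, which averaged 10083 RPM. Over all ages this r was 0.907 and rho was 0.856, and r was 0.841 without the 2 farthest libraries. miR-23b-3p alone had a within-age r of 0.924 with miR-338-5p, so this relation rests largely on that miRNA. The same list had a within-age r of 0.734 with miR-338-3p (permutation p = 0.00131, adjusted 0.00982) and 0.683 with miR-219 (permutation p = 0.00293, adjusted 0.0146). The neuron list ran the other way, with a within-age r of -0.670 with miR-338-3p (permutation p = 0.0043, adjusted 0.0184), -0.628 with miR-338-5p (permutation p = 0.00281, adjusted 0.0146) and -0.498 with miR-219 (permutation p = 0.0689, adjusted 0.148). Over all ages r was -0.595, -0.541 and -0.497 in the same order (permutation p adjusted to 0.0289, 0.0557 and 0.0666). The rho was -0.605, -0.415 and -0.492 (permutation p adjusted to 0.0449, 0.175 and 0.107), so over all ages only miR-338-3p passed. The microglia and immune list had a within-age r of 0.807 with miR-219 (permutation p = 0.00127, adjusted 0.00982), 0.754 with miR-338-3p (permutation p = 0.00058, adjusted 0.0087) and 0.362 with miR-338-5p (permutation p = 0.114, adjusted 0.213). Its within-age r with miR-219 was 0.628 without day 1 replicate 3 and 0.514 without the 2 farthest libraries. The sum of this list was led by miR-21-5p, which averaged 10330 RPM, so the relation rests largely on that miRNA. No relation with the other 7 lists passed within ages after adjustment; the nearest was the erythroid list with miR-219 (r = 0.685, permutation p = 0.0137, adjusted 0.0512), whose r was 0.432 without day 1 replicate 3.

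The 4 libraries lowest in the members can be described by the same sums. They were picked by the members' values, so these ranks restate the relations above and add no separate evidence. The differentiation list was lowest of its age in 4 of these 4 libraries, with between 3543 and 5954 RPM. The neuron list was highest of its age in 3 of them, and in day 180 replicate 4 it was second, at 30116 RPM beside 30208 RPM in the highest library. The microglia and immune list and the erythroid list were each lowest of their age in 3 of the 4; in day 120 replicate 1, the microglia and immune list was the highest of its age, at 15694 RPM. The precursor list and the multiciliated and choroid plexus list were each highest in 2 of them. The part of the cell mixture or of the dissection in the members' low values was not tested.

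**Figure D5:**
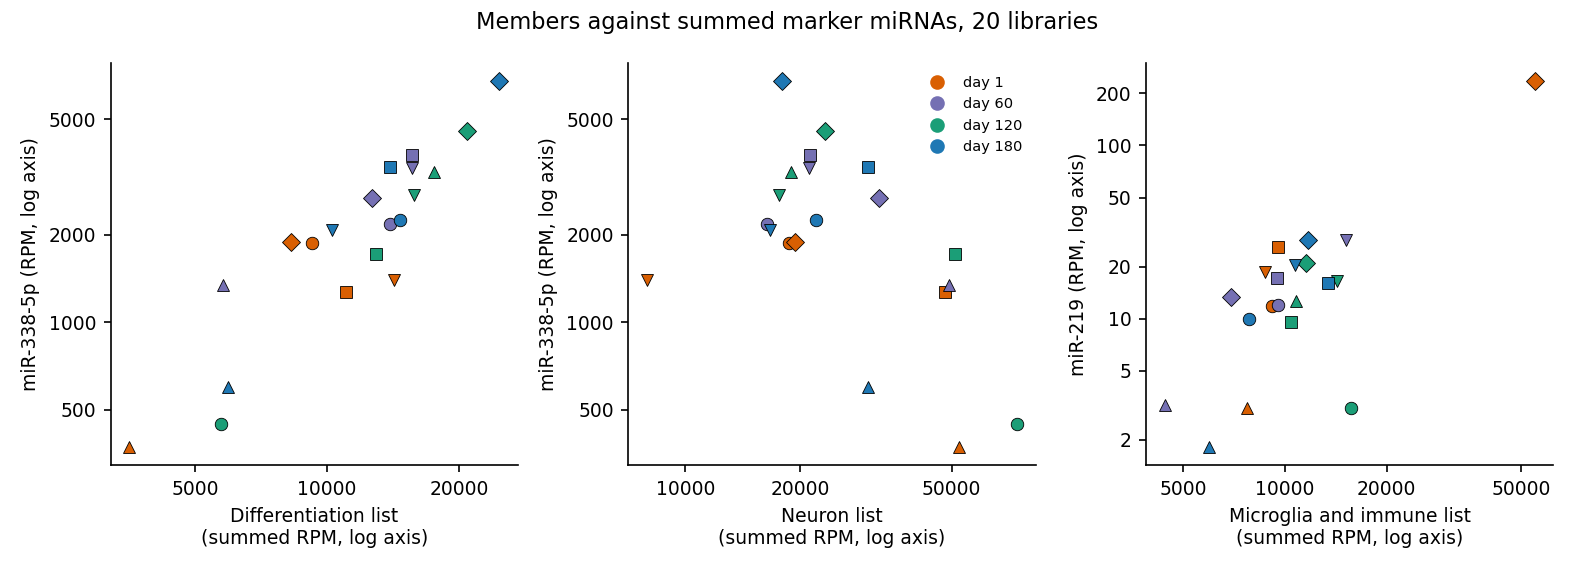
Level of a member (RPM, log axis) against the summed RPM of a marker list (log axis) in 20 libraries, with the differentiation list and the neuron list for miR-338-5p and the microglia and immune list for miR-219; colour is the age and shape the replicate number. miR-338-5p rises with the differentiation list (within-age r of 0.913). It falls with the neuron list within ages (r of -0.628), while the r of -0.541 over all ages did not pass after adjustment. Day 1 replicate 3 lies alone at 55015 RPM of the microglia and immune list.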

How the data were processed

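Small RNA was sequenced from 20 hypothalamus libraries, 5 at each of 4 ages. Per the labels' protocols, RNA was taken up in Trizol and libraries were made with the NEBNext Multiplex Small RNA kit. Bowtie is listed, with no version, per the submitters' processing notes. The authors deposited 1 table in RPM (its columns are labelled TPM, but low values are whole multiples of 1 step per library, with no division by length). Read counts recovered from that step were whole (within 0.1 read) in 100% of cases under 1000 reads. The build and the miRNA catalogue are not known here.

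limma 3.58.1 (R 4.3.3, variance trend, two-sided) was fitted to log2(RPM + 1) of the 414 miRNAs with at least 1 RPM in at least 5 libraries, with 4 age means and no covariate, and p-values were adjusted over all 414. Arm ratios were tested by exact permutation over 252 arrangements (scipy 1.17.1), and correlations by 100000 permutations, within ages where so stated. edgeR 4.0.16 and DESeq2 1.42.0 on the recovered reads, other pseudocounts, filters and scalings, and leaving out each library were alternatives. The limma and edgeR fits were tested on simulated data. Replicates were described as biological; libraries of an age differed beyond sampling noise, with a chi-square per degree of freedom of at least 358 over 40 pairs. Replicate numbers were not taken to pair animals across ages.

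The members and lists were chosen with earlier results of these data known. The text names all members and the 5 miRNAs most like each by Pearson's r. It also names up to 4 of the most abundant rows of a list and its called rows. miR-27a-5p and the rows of the neuron list given beside the library depths were named after their values were seen.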

Additional observations from a re-analysis of the deposited data

Results flagged for a closer look

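Of 16 sets of 5 libraries, 2 held a library far from the others by Dixon's test on RPM, which chance alone gives in about 1 of 20 sets where values are normally distributed. Both were day 1 replicate 3. miR-219 had 234 RPM there, and the gap to the next day 1 library was 0.901 of the whole day 1 range. miR-338-3p had 690 RPM there, with a gap of 0.733 of the range, while miR-338-5p had 1888 RPM, close to the 1882 RPM of replicate 1. On log2(RPM + 1), the scale of the tests, the gaps were 0.534 for miR-219 and 0.419 for miR-338-3p, and neither passed the critical value of 0.71.

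The same library had 55015 RPM in the sum of the microglia and immune list, against at most 15694 RPM in any other library. That sum was led by miR-21-5p, at 53370 RPM against at most 13732 RPM elsewhere. It was the only row of the list above all other libraries, 1 of 7 tested rows; miR-223-3p, a myeloid miRNA, had 2.38 RPM, inside the range of 0.374 to 8.89 RPM elsewhere. Of the 3 tested erythroid rows, 2 were above all other libraries, with miR-451-5p at 1531 RPM against at most 1325 RPM. So were 4 of 18 precursor rows, 1 of 7 neuron rows and 1 of 4 vessel rows, and 51 of all 414 tested miRNAs (12.3%). The part of these miRNAs in the members' levels was not tested.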

How the results depend on the processing

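Over 24 limma results of the members and 6 arm ratios, 888 alternative values were computed: 838 kept direction and side of the threshold, 7 passed the threshold where the main value did not, and 43 changed sign. No limma alternative called a member (0 of 690). The calls came from read counts. For miR-219, the later ages against day 1 gave -1.92 by edgeR with TMM, -2.05 with library sizes alone and -2.03 by DESeq2, which also gave -2.03 at day 60 and -2.26 at day 120 against day 1, and an adjusted p of 0.0280 over the 4 ages. Without day 1 replicate 3, an alternative chosen after seeing the data, edgeR and DESeq2 gave 0.036 and 0.073 for the later ages together, 0.028 and 0.082 at day 60, -0.17 and -0.16 at day 120 and 0.25 and 0.30 at day 180 against day 1, with adjusted p of 0.945 and 0.939 over the 4 ages, and DESeq2 called miR-338-3p at day 180 against day 1, at 1.87.

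Small differences also changed sign. At day 180 against day 60, miR-219 had 0.066 with median-of-ratios and 0.074 with quantile scaling, 0.22 by edgeR with TMM, 0.048 with library sizes and 0.22 by DESeq2 (0.22 in both without day 1 replicate 3), and miR-338-5p had 0.011 with median-of-ratios scaling, 0.26 by edgeR with TMM, 0.18 with library sizes and 0.26 by DESeq2 (0.26 in both without day 1 replicate 3). At day 60 against day 1, miR-338-3p had -0.16 by edgeR with TMM, -0.079 with library sizes and -0.21 by DESeq2. The cause was not tested.

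By limma with each library left out in turn, miR-219 ran from -1.41 to 0.051 at day 60 against day 1, -0.60 to 0.21 at day 120 against day 60, -0.27 to 0.66 at day 180 against day 120 and -0.48 to 0.48 at day 180 against day 60. miR-338-3p ran from -0.22 to 0.78 at day 60 against day 1. miR-338-5p ran from -0.63 to 0.20 at day 120 against day 60, -0.33 to 0.70 at day 180 against day 120 and -0.51 to 0.36 at day 180 against day 60. The log2 arm ratio at day 120 against day 1 ran from -0.23 to 0.34. The limma count for the later ages against day 1, 44 miRNAs, was 18 without day 1 replicate 2, 23 without day 1 replicate 3, 28 with a filter at 10 RPM, 67 with quantile scaling and between 91 and 107 on read counts; over the 4 ages, 8 became 30 with median-of-ratios scaling, 5 without either of those libraries, 15 or 16 without day 1 replicate 5 or 4 and up to 90 by DESeq2. In single comparisons with day 1, counts were 4 to 5 with only the 2 ages compared and 23 to 40 with median-of-ratios or quantile scaling. With no filter, day 60 had 9 and day 180 had 8; day 180 had 7 with a pseudocount of 0.1 and 5 with a filter at 10 RPM. At day 60 against day 1, 16 calls became 2 without day 60 replicate 4, 3 without day 1 replicate 3, 6 without replicate 2 of either age, 9 without day 60 replicate 3, 10 without day 120 replicate 3, 4 or 5, and 43, 31 and 25 without day 1 replicate 4, day 1 replicate 5 and day 60 replicate 5. At day 120 against day 1, 14 became 7 without day 120 replicate 3, 8 without day 1 replicate 2 or day 120 replicate 4, and 29 and 25 without day 1 replicates 5 and 4. At day 180 against day 1, 14 became 5 without day 180 replicate 5, 6 without day 1 replicate 2 or day 120 replicate 5, 7 without day 1 replicate 1, day 1 replicate 3 or day 180 replicate 1, 8 or 9 without day 180 replicate 4 or 3 and 31 without day 1 replicate 5.

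Same-numbered libraries of different ages had correlated deviations above 0.1 in 11 of 30 pairs, and 4 of 20 libraries correlated best with their own number, so the numbers were not read as pairs. With the replicate block, the later ages against day 1 kept 0.93 for miR-338-5p (adjusted p = 0.160), 0.73 for miR-338-3p (0.291) and -0.87 for miR-219 (0.256), and no member call changed. miR-219 is limited by depth in its lowest libraries, at 15 to 25 reads.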

Other observations

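miRNAs whose levels ran against the members were named after their values were seen, with Pearson's r over the 20 libraries given as a description. miR-129-5p, a neuronal miRNA with a mean of 10328 RPM, had the most negative r of the 292 named miRNAs with both arms of miR-338, at -0.668 with miR-338-5p and -0.639 with miR-338-3p; without day 1 replicate 3 it was at position 291 and 292 of 292, counted from the most alike, in the same order. It is also part of the neuron list, so it adds no separate evidence to that list's values.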
